A study of Homo sapiens with 48 samples.

Results

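The genes of cholesterol synthesis, uptake and export were followed in HK-2 cells, an immortalised human cell line from the renal proximal tubule, under 4 compounds. The set holds 27 genes, chosen by name for their place in the pathway, with earlier results of these data known. Each gene was represented by a probe set of the array whose only gene symbol is that gene, and where several qualified by the one with the highest mean level. Of the 27 genes, 25 had such a probe set and 24 of these passed the filter on low values, a log2 level above 4 in at least 3 arrays, out of 11356 genes that passed in the whole series. The gene that did not pass was ABCG1, a sterol exporter, whose 4 probe sets stayed at or below 3.16 in every array. CYP51A1, a sterol demethylase, was left out because its probe sets carry a second symbol, and FDFT1, squalene synthase, was not analysed here.

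RNA was measured on 48 arrays in 16 groups of 3 biological replicates, and all groups are HK-2 cells grown in the same medium. One set holds cells treated with CsA for 12 or 48 h, each time with its own vehicle controls. A further set holds cells treated with Fk or with Ra for 12 or 48 h, where both compounds share the vehicle controls of their time. The last set holds cells treated with Nnm for 24 or 48 h at a low or a high dose, which share the vehicle controls of their time. The labels give the compounds by these short names, with no amounts. As a cell line, HK-2 was checked against markers of its tissue. The keratins KRT8, KRT18 and KRT19 and the cadherin CDH2 had mean log2 levels of 11.43, 12.81, 12.04 and 9.77, whereas the proximal tubule genes ANPEP, AQP1, LRP2, CUBN and SLC34A1 did not pass the filter. GGT1, also on the tubule list, passed it, with a mean of 3.94 and a highest level of 4.91.

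Cells build cholesterol from acetyl-CoA through mevalonate and the isoprenoid farnesyl diphosphate to squalene, lanosterol and a series of sterol intermediates. When sterols are scarce, the SCAP protein escorts the transcription factor encoded by SREBF2 out of the endoplasmic reticulum, and its released fragment switches on the synthesis enzymes. When sterols are plentiful, the INSIG proteins hold SCAP back. Oxidised sterols activate the liver X receptors, which induce the exporters ABCA1 and ABCG1 and the ubiquitin ligase MYLIP, which marks lipoprotein receptors for degradation.

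The 24 genes were grouped by role as 7 enzymes of the mevalonate stage, 9 sterol enzymes, 4 regulators and 4 genes of transport and export. All values below are log2 levels made with GCRMA, a method that corrects an array's background by probe sequence and summarises the probes of a set, and a difference of 1 is a 2-fold change. Levels are compared between samples for the same gene only. Over the 16 groups the means of a member spanned a median of 1.58 log2 units, against 1.27 over all genes tested. The narrowest span was that of SREBF2, with group means of 8.12 to 8.70, and the widest that of ACAT2, with 9.69 to 12.58. The spread between replicates was also wider for the members, with a median SD of 0.30 against 0.22 over all genes. TM7SF2, a sterol reductase, was the least even within a group, since the replicates of the CsA-set controls at 12 h had 8.22, 8.33 and 4.84. One array stood apart from the rest, replicate 2 of Ra at 48 h, with a median of 7.47 over the genes tested against 8.15 to 8.41 on the other arrays.

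The promoters of the members were read from RefSeq (GRCh38.p14) in windows of 250 bases before and 50 bases after the gene's start. A window was at hand for 23 of the 27 genes, with several for 5 of them. Both strands were searched for CCAAT, a box bound by the factor NF-Y, which often sits beside the binding sites of sterol-regulated factors, and for TCACNCCAC, a core of the sterol regulatory element. A CCAAT box lay in a window of 17 of the 23 members (73.9%), against 10846 of 27305 genes with a window (39.7%). The sterol element core lay in 1 member, SREBF2, and in 379 of all genes. By window, CCAAT was in 65.5% of the members' 29 windows and in 34.6% of all 35116, and the sterol element core in 3.45% and 1.13%. The stretches that hold the matches are shown for 3 enzymes that were lower under Nnm and for SREBF2 itself, with CCAAT, its reverse complement ATTGG and the sterol element core in capitals.
MVD: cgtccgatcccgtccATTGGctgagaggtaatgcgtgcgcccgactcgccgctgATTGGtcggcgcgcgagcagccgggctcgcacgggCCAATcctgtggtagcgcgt
FDPS: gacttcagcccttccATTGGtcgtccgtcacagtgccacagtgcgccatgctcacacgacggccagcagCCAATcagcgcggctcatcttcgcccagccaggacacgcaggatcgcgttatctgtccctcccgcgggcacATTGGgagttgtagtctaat
NSDHL: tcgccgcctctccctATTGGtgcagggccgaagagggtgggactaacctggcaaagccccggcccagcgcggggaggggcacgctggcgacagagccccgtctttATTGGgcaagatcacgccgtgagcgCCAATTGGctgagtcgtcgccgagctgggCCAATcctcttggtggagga
SREBF2: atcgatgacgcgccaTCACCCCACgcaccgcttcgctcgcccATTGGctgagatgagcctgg

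The MVD stretch is chr16:88663157-88663265 on the minus strand, ending 66 bases before the gene's start, and the FDPS stretch is chr1:155308675-155308834 on the plus strand. The NSDHL stretch is chrX:152830820-152830998 on the plus strand and holds 5 CCAAT matches, 2 of which overlap. The SREBF2 stretch is chr22:41832957-41833018 on the plus strand. All 4 lie upstream of the annotated start. A match of letters is a description of the sequence and not a bound site.

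Each treatment was set against the vehicle controls of its own set and time with limma across all 11356 genes, and a gene was called at an adjusted p under 0.05. In this fit, which did not use the replicate numbers, members were called under Nnm at both doses and both times and under Ra at 48 h. None was called in a comparison of CsA or Fk. Of the called changes against controls, 24 were decreases and 3 were increases. The p-values measure the spread between replicates of 1 line, and fewer cells of a kind and less RNA per cell cannot be told apart in such bulk samples.

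**Figure D1:**
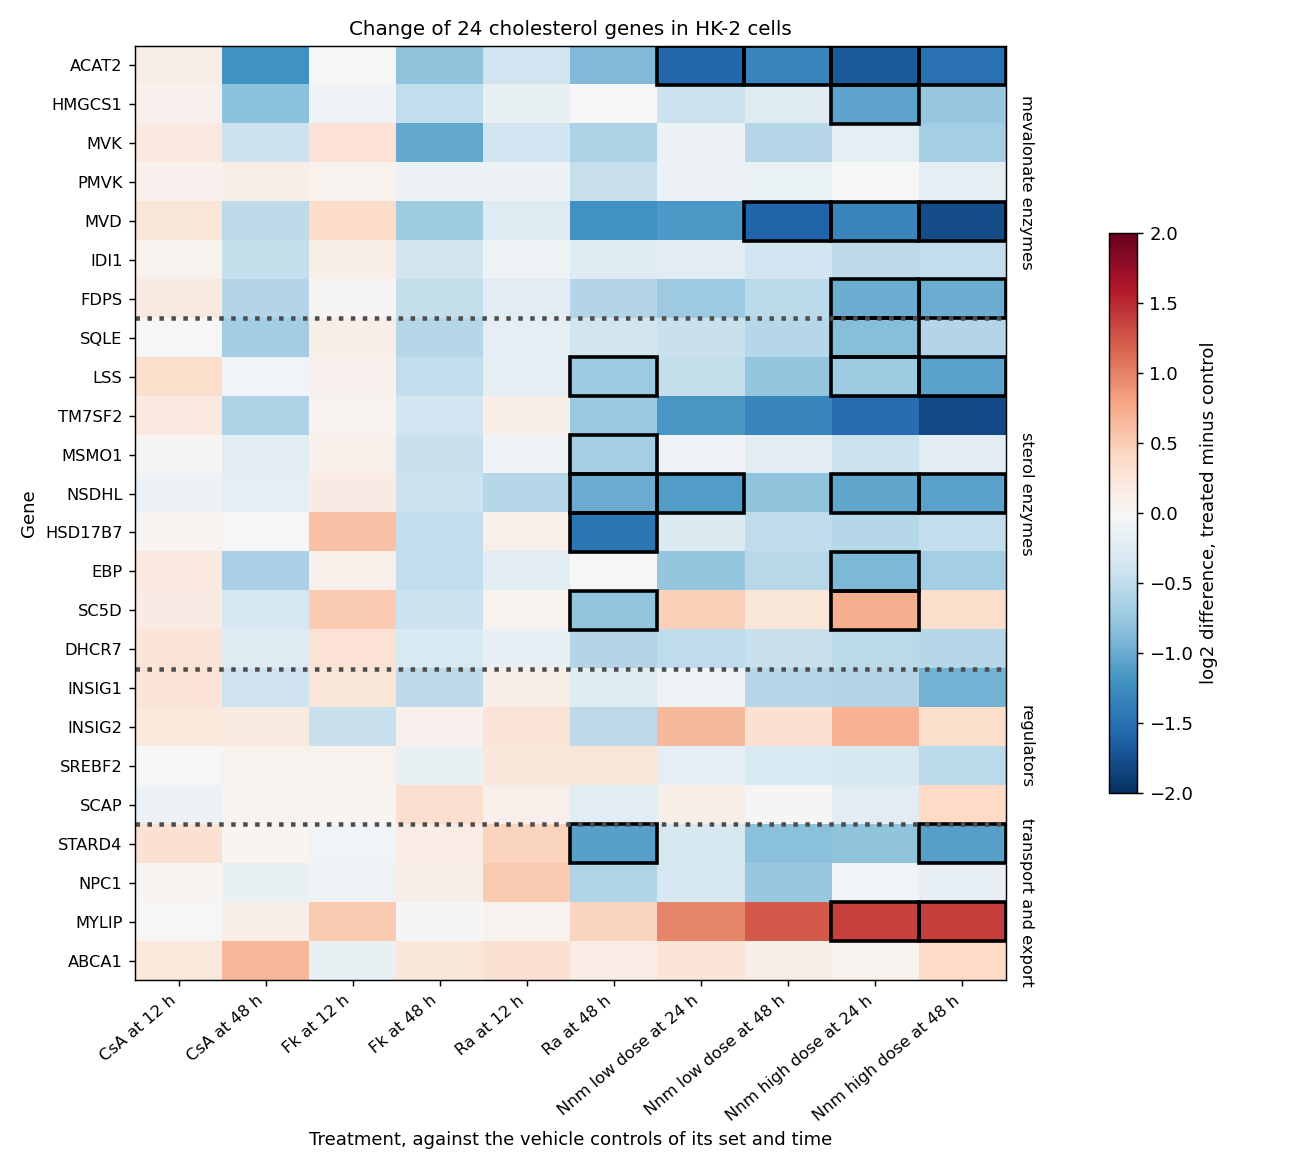
Log2 difference, treated minus vehicle control, of the 24 cholesterol genes (y axis, by role) in the 10 treatment comparisons (x axis), from blue (lower in treated cells) to red (higher), with called genes outlined in black. Most outlined cells are blue and lie under Nnm, where ACAT2 is outlined at both doses and both times, and MYLIP is red at the high dose.

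Under the high dose of Nnm, 8 of 16 enzymes of cholesterol synthesis fell and 1, SC5D, rose at 24 h, and 5 of 16 fell at 48 h, while MYLIP rose at both times. Under the low dose 2 of 16 enzymes fell at each time. At the high dose 10 of 24 members (41.7%) were called at 24 h, where 23.1% of all genes were called, and 7 of 24 (29.2%) at 48 h, where 16.8% of all genes were called. At the low dose 2 of 24 (8.33%) were called at each time, beside 8.29% of all genes at 24 h and 5.22% at 48 h. In this fit, which did not use the pairing of arrays, the members' shares were above those of all genes at the high dose. They were close to them at the low dose at 24 h. Since the members were chosen with earlier results of these data known, the shares are a description and not a test. In each of the 4 comparisons 19 of 24 members lay below 0, against 48.1% to 50.9% of all genes. The median member differed by -0.30 and -0.53 at the low dose and by -0.55 and -0.58 at the high dose at 24 and 48 h, and the median of all genes by -0.01 to 0.02. The comparisons of both doses share their controls. In all 4 of them 18 members were below 0, while ABCA1, INSIG2, MYLIP and SC5D were above 0.

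Among the mevalonate enzymes, ACAT2, which joins acetyl-CoA units at the entry to the pathway, was lower in every Nnm group. At 24 h its levels were 11.39, 11.63 and 11.68 in the controls, 9.34, 10.81 and 9.85 at the low dose and 9.41, 10.64 and 9.58 at the high dose. At 48 h they were 11.001, 11.25 and 11.48 in the controls, 9.19, 10.50 and 10.09 at the low dose and 9.26, 10.24 and 9.77 at the high dose. No treated array overlapped the controls, and ACAT2 differed by -1.56 (SE 0.38, adjusted p = 0.00979) and -1.69 (SE 0.38, adjusted p = 0.00203) at the low and high dose at 24 h. At 48 h the differences were -1.32 (SE 0.38, adjusted p = 0.0352) and -1.49 (SE 0.38, adjusted p = 0.00706), so that the high dose left 0.357 of the control level.

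MVD makes isopentenyl diphosphate, the building block of all isoprenoids, from mevalonate diphosphate. Its levels at 24 h were 6.47, 5.15 and 6.25 in the controls, 5.36, 4.60 and 4.48 at the low dose and 5.01, 4.43 and 4.49 at the high dose. At 48 h they were 6.64, 4.92 and 6.71 in the controls, 4.53, 3.57 and 5.37 at the low dose and 3.88, 4.49 and 4.59 at the high dose. Control replicate 2 was lower than the other two at both times, and at the low dose replicate 1 overlapped it at 24 h and replicate 3 at 48 h. The treated values of 3.57 and 3.88 at 48 h lay under the filter level of 4, so the sizes given for 48 h rest partly on dim values. MVD differed by -1.60 (SE 0.47, adjusted p = 0.0358) at the low dose at 48 h and by -1.31 (SE 0.47, adjusted p = 0.0384) and -1.77 (SE 0.47, adjusted p = 0.00869) at the high dose at 24 and 48 h. The low dose at 24 h gave -1.15 (SE 0.47, adjusted p = 0.122), which did not pass.

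FDPS, which makes farnesyl diphosphate, fell at the high dose. Its levels were 13.07, 13.20 and 13.02 in the controls, 11.95, 12.94 and 12.21 at the low dose and 11.67, 12.81 and 11.81 at the high dose at 24 h. At 48 h they were 13.03, 13.11 and 13.10 in the controls, 12.16, 12.81 and 12.64 at the low dose and 11.54, 12.82 and 11.90 at the high dose. Every high-dose array lay below every control, by -0.998 (SE 0.29, adjusted p = 0.0125) on average at 24 h and -0.99 (SE 0.29, adjusted p = 0.0173) at 48 h. HMGCS1, which condenses acetoacetyl-CoA and acetyl-CoA, had 9.43, 10.86 and 9.34 in high-dose cells against 11.10, 10.73 and 10.94 in controls at 24 h, a difference of -1.05 (SE 0.39, adjusted p = 0.0469), and replicate 2 lay within the range of the controls. The kinase PMVK was the steadiest enzyme of this stage, with differences of -0.12, -0.14, 0.01 and -0.19 at low and then high dose. MVK and IDI1 were not called, at -0.69 and -0.50 at the high dose at 48 h, although MVK passed there with the block (adjusted p = 0.0457).

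Of the 9 sterol enzymes, 4 fell and 1 rose at the high dose at 24 h. NSDHL, which removes a methyl group's oxidised carbon from the sterol ring, had 9.49, 9.32 and 9.74 in the controls, 8.03, 8.68 and 8.48 at the low dose and 8.21, 8.75 and 8.46 at the high dose at 24 h. The 48 h levels were 9.19, 8.97 and 9.44 in the controls, 7.93, 8.69 and 8.58 at the low dose and 7.54, 8.48 and 8.35 at the high dose. All treated arrays lay below the controls, and NSDHL differed by -1.12 (SE 0.30, adjusted p = 0.0174) at the low dose at 24 h. At the high dose it differed by -1.04 (SE 0.30, adjusted p = 0.0111) and -1.08 (SE 0.30, adjusted p = 0.0116) at 24 and 48 h.

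LSS, which closes the sterol rings to form lanosterol, had 10.43, 10.36 and 10.49 in the controls, 9.50, 9.67 and 9.74 at the low dose and 9.17, 9.69 and 9.23 at the high dose at 48 h. The 3 controls lay close together and above all treated arrays, and the high dose gave -1.06 (SE 0.25, adjusted p = 0.00394), against -0.71 (SE 0.25, adjusted p = 0.0394) at 24 h. A second probe set of LSS gave -1.27 (SE 0.39, adjusted p = 0.0232) at 48 h and was not called at 24 h, at -0.77 (SE 0.39, adjusted p = 0.152). The dimmest was called at neither time, at -0.08 (SE 0.30, adjusted p = 0.903) at 48 h and 0.14 (SE 0.30, adjusted p = 0.801) at 24 h. EBP, a sterol isomerase, had 10.62, 11.25 and 11.12 in high-dose cells and 11.79, 11.82 and 12.08 in controls at 24 h, without overlap, a difference of -0.89 (SE 0.26, adjusted p = 0.013). SQLE, the epoxidase that precedes LSS, differed by -0.85 (SE 0.28, adjusted p = 0.0275) there.

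SC5D, a desaturase late in the pathway, moved the other way. Its levels were 10.97, 10.44 and 11.04 in high-dose cells and 10.02, 10.10 and 10.16 in controls at 24 h, without overlap, a rise of 0.72 (SE 0.25, adjusted p = 0.0338). At 48 h the difference was 0.35 (SE 0.25, adjusted p = 0.367), and a dim second probe set of SC5D gave -0.02 (SE 0.31, adjusted p = 0.982) at 24 h. TM7SF2 had the lowest difference of any member at the high dose at 48 h, -1.80 (SE 0.67, adjusted p = 0.0588), with 6.34, 7.76 and 6.41 against 8.89, 8.42 and 8.59 in controls. It was not called, with an SE of 0.67 in a fit that pools all 16 groups, but passed there once arrays were centred (adjusted p = 0.0442). Once same-numbered arrays were blocked, TM7SF2 passed in all 4 Nnm comparisons, at adjusted p of 0.0419 and 0.0294 at the low dose and 0.00448 and 0.00137 at the high dose. The call at the low dose at 24 h was lost when the blocked fit used the Nnm arrays alone.

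**Figure D2:**
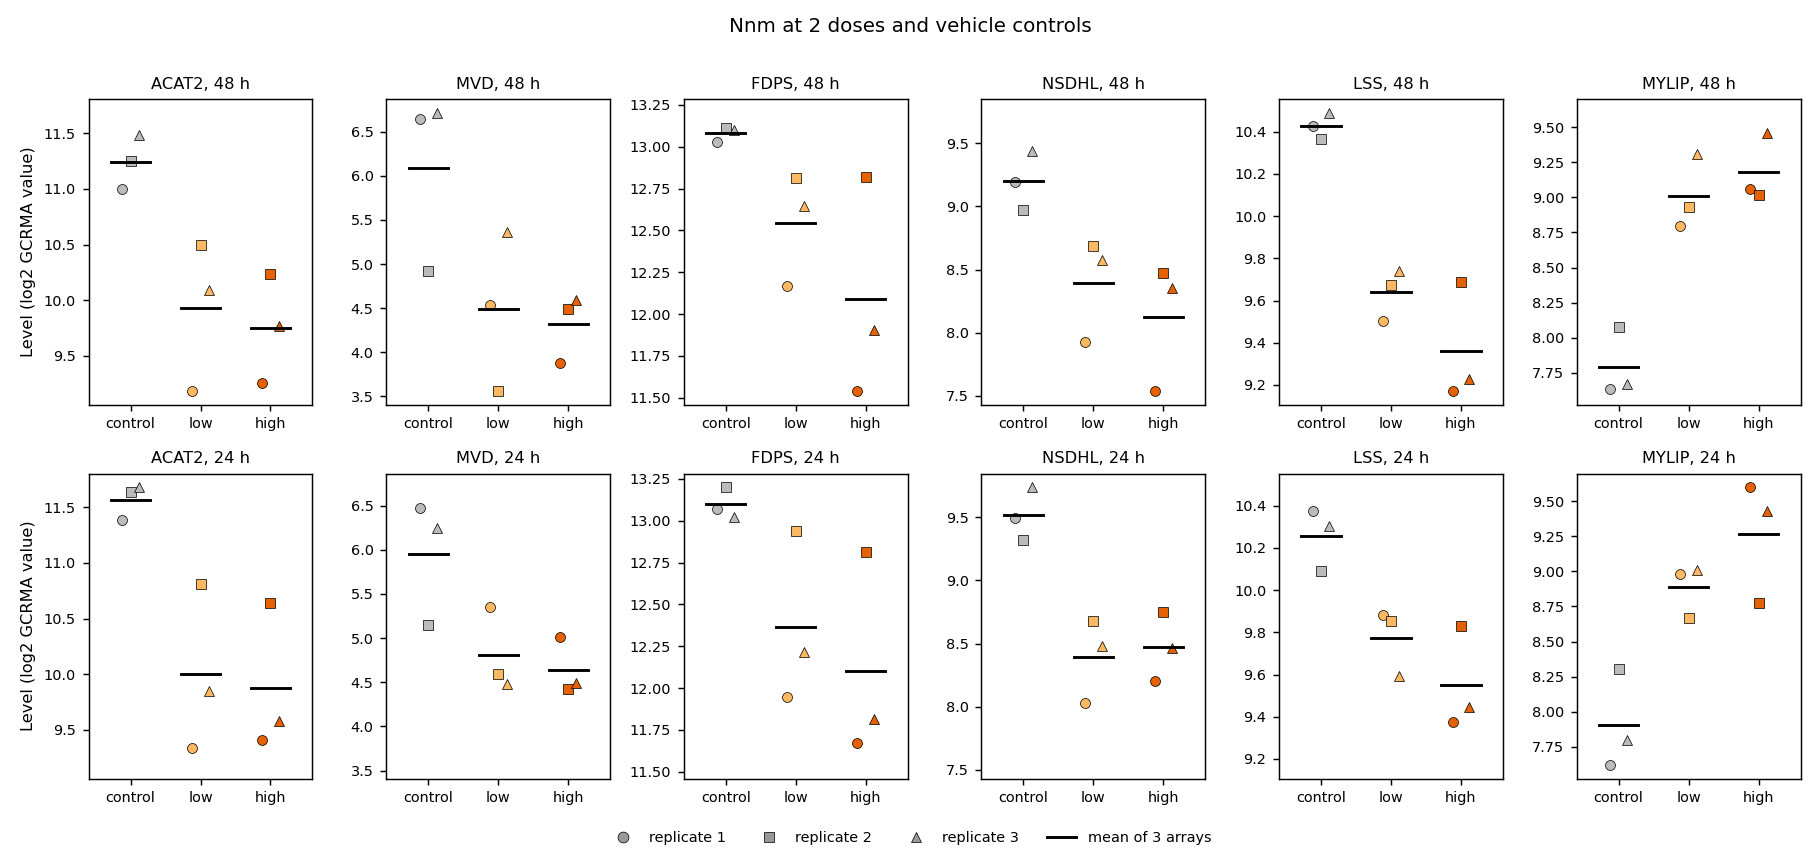
Log2 levels (y axis) of 6 members in the Nnm set at 48 h (top) and 24 h (bottom), by dose from vehicle control to low and high (x axis). Symbols are single arrays by replicate number and bars are means of 3 arrays. ACAT2, FDPS, NSDHL and LSS are lower at both doses and MYLIP is higher, and the treated squares, replicate 2, lie nearest to the controls in ACAT2 and FDPS.

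None of the 4 regulators was called under Nnm in the fit of the deposited values without pairing. INSIG1, a brake on SCAP that is itself switched on by SREBF2's product, had 10.91, 11.79 and 11.52 in high-dose cells and 12.14, 12.51 and 12.40 in controls at 48 h, a difference of -0.94 (SE 0.37, adjusted p = 0.0747). INSIG2, its relative, lay on the other side of 0 at 0.70 (SE 0.27, adjusted p = 0.0524) at the high dose at 24 h, and passed with the block (adjusted p = 0.0225). SREBF2 itself differed by -0.32 (SE 0.21, adjusted p = 0.281) and -0.53 (SE 0.21, adjusted p = 0.0793) at the high dose at 24 and 48 h, the second of which passed with the block (adjusted p = 0.0167). SCAP, which lay between -0.23 and 0.40, had both signs.

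In transport and export, MYLIP rose. Its levels were 7.62, 8.30 and 7.80 in the controls, 8.98, 8.67 and 9.01 at the low dose and 9.60, 8.78 and 9.43 at the high dose at 24 h. At 48 h they were 7.63, 8.07 and 7.67 in the controls, 8.79, 8.93 and 9.31 at the low dose and 9.06, 9.02 and 9.46 at the high dose. Every treated array lay above every control at both times. The high dose gave 1.36 (SE 0.40, adjusted p = 0.0139) at 24 h and 1.39 (SE 0.40, adjusted p = 0.0162) at 48 h, or 2.57-fold and 2.62-fold, and 3 other probe sets of MYLIP were called higher at both times. STARD4, a carrier that moves cholesterol between membranes, fell at 48 h, with 8.89, 9.50 and 9.07 in high-dose cells against 10.24, 10.12 and 10.34 in controls, a difference of -1.08 (SE 0.36, adjusted p = 0.0359). NPC1, which releases cholesterol from lysosomes, and ABCA1 were not called, at -0.17 and 0.39 at the high dose at 48 h.

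The replicate numbers paired the arrays in the Nnm set, where same-numbered arrays deviated together. With the number as a block, 6 members were called at the low dose at 24 h, 6 at 48 h and 11 at the high dose at 48 h. The share of all genes called with the block is not given here, so the higher counts are not shown to be particular to the members. Replicate 2 responded least over the whole array, since the SD of its treated minus control differences over all genes was 0.40 and 0.39 at the low dose and 0.45 and 0.45 at the high dose at 24 and 48 h, against 0.63 to 0.95 for the other numbers. The median member's difference at the high dose was -0.14 in replicate 2 at 24 h, against -0.75 and -0.73 in replicates 1 and 3. At 48 h it was -0.32 against -0.94 and -0.60. Between 15 and 20 members were below 0 in each replicate of each comparison.

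Single arrays decided many of these calls. At the high dose at 24 h the count of 10 fell to 1 without high-dose replicate 1, to 3 without high-dose replicate 3, to 4 without control replicate 1 and to 2 without control replicate 3. At 48 h the count of 7 became 1, 11 and 4 without high-dose replicates 1, 2 and 3, and 4 and 2 without control replicates 1 and 3. At the low dose at 24 h it was 0, 4 and 0 without low-dose replicates 1, 2 and 3 and 0 without control replicate 3. At 48 h it was 0, 1 and 1 without low-dose replicates 1, 2 and 3 and 0, 1 and 0 without control replicates 1, 2 and 3. Among the named calls here, ACAT2 at the high dose at 24 h and LSS at the high dose at 48 h held whichever array was left out.

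Set against the low dose of Nnm, the high dose gave no called member by limma. At 24 h 0 of 24 members were called and 0 had an unadjusted p under 0.05, where 0.00881% of all genes were called. At 48 h the counts were 0 and 0, with 0.0176% of all genes called. The lowest difference was that of HMGCS1, at -0.62 (95% confidence interval -1.41 to 0.17) at 24 h and -0.51 (-1.29 to 0.28) at 48 h. Neither interval excludes a further decrease at the high dose. No member's high-dose and low-dose arrays were free of overlap at either time, beside 5.63% of all genes at 24 h and 5.07% at 48 h. The members' share was thus near that of all genes.

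Genes around the pathway were counted from 4 lists. At the high dose 23.1% of all genes were called at 24 h and 16.8% at 48 h. Of 11 tested genes for other products of mevalonate, 4 rose and 3 fell at the high dose at 24 h, and 2 rose and 2 fell at 48 h. One of the genes counted as higher in all 4 comparisons was FNTB, a subunit of the enzyme that attaches farnesyl groups to proteins, whose control means of 2.85 at 24 h and 3.53 at 48 h lay under the filter level of 4. Its means were 4.37 and 5.04 at the low dose and 4.85 and 5.09 at the high dose at 24 and 48 h. Since the mean of FNTB was under the filter level in the controls and above it in treated cells, no size of difference is given for it. COQ2, which attaches the isoprenoid tail in coenzyme Q synthesis, was lower in all 4, from -0.80 (SE 0.23, adjusted p = 0.0281) at the low dose at 24 h to -1.32 (SE 0.23, adjusted p = 0.00026) at the high dose at 48 h. PDSS1, which builds that tail, was lower at 24 h, by -1.33 (SE 0.38, adjusted p = 0.0256) at the low and -1.24 (SE 0.38, adjusted p = 0.017) at the high dose. Its partner PDSS2 was higher at the high dose, by 1.26 (SE 0.30, adjusted p = 0.00305) at 24 h and 0.92 (SE 0.30, adjusted p = 0.0316) at 48 h. DHDDS, which makes dolichol chains, was lower at 24 h at the high dose, by -1.03 (SE 0.20, adjusted p = 0.00062), and RABGGTB, a subunit of the enzyme that prenylates RAB proteins, was higher by 1.13 (SE 0.34, adjusted p = 0.0154). ACAT1, the mitochondrial relative of ACAT2, was lower at 48 h at the high dose by -0.71 (SE 0.23, adjusted p = 0.0334).

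Among 8 tested genes of sterol sensing and SREBP processing, SREBF1, the relative of SREBF2 that favours fatty acid genes, fell at the high dose by -1.07 (SE 0.26, adjusted p = 0.00362) at 24 h and -1.24 (SE 0.26, adjusted p = 0.00143) at 48 h. RNF139, a sterol-responsive ubiquitin ligase, rose by 0.82 (SE 0.21, adjusted p = 0.00513) and 0.68 (SE 0.21, adjusted p = 0.024), and MARCHF6, a ligase that degrades SQLE, by 0.73 at 24 h (SE 0.26, adjusted p = 0.0387). Of 11 tested genes of receptors, handling and esterification, 0 rose and 1 fell at each time at the high dose, CAV1, the caveola protein, by -0.81 (SE 0.24, adjusted p = 0.0145) and -0.94 (SE 0.24, adjusted p = 0.00674). Of 5 tested liver X receptor partners, NCOA1, a coactivator, rose at 24 h by 0.88 (SE 0.27, adjusted p = 0.0375) at the low dose and 1.13 (SE 0.27, adjusted p = 0.003) at the high dose. RXRB, a partner receptor, rose by 0.68 (SE 0.25, adjusted p = 0.0425) at the high dose at 24 h, and NR1H3, a liver X receptor, by 0.88 (SE 0.28, adjusted p = 0.0288) at 48 h.

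Markers of other cell types were read beside these results. The endothelial marker PECAM1 was higher at the high dose at 48 h, by 0.82 (SE 0.21, adjusted p = 0.0068). Of the 4 endothelial markers 1 passed the filter, and their summed linear signal was 45.3 to 56.3 in high-dose cells and 34 to 37 in controls. VWF, CDH5 and KDR reached at most 2.39, 2.49 and 2.86 on any array. CDH2, which the tubular list holds, was higher by 0.82 (SE 0.28, adjusted p = 0.0399). Of 5 fibroblast markers 2 passed, COL1A1 and DCN, with summed signals of 2821 to 4882 in high-dose cells and 3883 to 4091 in controls at 48 h, and neither was called under Nnm. None of the 4 leukocyte markers passed the filter. The part of these markers in the members' result was not tested.

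Under Ra at 48 h, 6 of 24 members (25%) were called, all lower, where 18.5% of all genes were called, most of them lower. The whole distribution was displaced there, with a median of -0.18 over all genes, and 19 of 24 members lay below 0 against 65.6% of all genes. After each array was centred on its median, 2 members remained called, HSD17B7 and NSDHL. With quantile normalization the 2 called by limma were HSD17B7 and MSMO1 (adjusted p = 0.0459), and NSDHL was not called. Replicate 2 of Ra at 48 h is the array that stood apart, and without it 1 member was called, HSD17B7.

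HSD17B7, a keto reductase of the sterol series, had 10.49, 9.32 and 10.46 in Ra cells against 11.55, 11.80 and 11.27 in controls. The Ra arrays all lay below the controls, by -1.45 (SE 0.24, adjusted p = 0.000142) on average, by -1.20 (adjusted p = 0.000376) after centring and by -1.06 (SE 0.22, adjusted p = 0.00407) without Ra replicate 2. This call held whichever array was left out. Its only probe set is of the type whose probes can match related transcripts, which the deposited values cannot separate.

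NSDHL had 9.26, 7.54 and 9.03 in Ra cells against 9.32, 9.89 and 9.60 in controls at 48 h. The groups did not overlap, and the difference of -0.99 (SE 0.30, adjusted p = 0.0177) was -0.74 (adjusted p = 0.0482) after centring and -0.46 (SE 0.27, adjusted p = 0.315) without Ra replicate 2. STARD4 had 10.43, 9.28 and 9.92 in Ra cells against 11.21, 11.35 and 10.31 in controls, where Ra replicate 1 overlapped control replicate 3. Its difference of -1.08 (SE 0.36, adjusted p = 0.032) was -0.83 (adjusted p = 0.0885) after centring.

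The other calls were smaller. MSMO1, a sterol methyl oxidase, had 13.40, 12.53 and 13.33 in Ra cells and 13.45, 13.93 and 13.94 in controls, without overlap, a difference of -0.69 (SE 0.21, adjusted p = 0.0205). SC5D had 10.58, 9.76 and 10.16 in Ra cells and 10.22, 11.27 and 11.39 in controls, a difference of -0.79 (SE 0.25, adjusted p = 0.0249) in which control replicate 1 lay within the Ra range, and its dim second probe set had the opposite sign at 0.36 (SE 0.31, adjusted p = 0.465). LSS had 10.29, 9.55 and 10.17 in Ra cells and 10.28, 11.01 and 10.91 in controls, a difference of -0.73 (SE 0.25, adjusted p = 0.0405) in which Ra replicate 1 just overlapped control replicate 1. Without Ra replicate 2 MSMO1 was at -0.41 (adjusted p = 0.246). After centring MSMO1, SC5D and LSS were at -0.43, -0.54 and -0.47, with adjusted p of 0.115, 0.115 and 0.179. HMGCS1 and EBP, lower under Nnm, were at 0.01 and 0.01 under Ra and at 0.26 and 0.27 after centring.

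**Figure D3:**
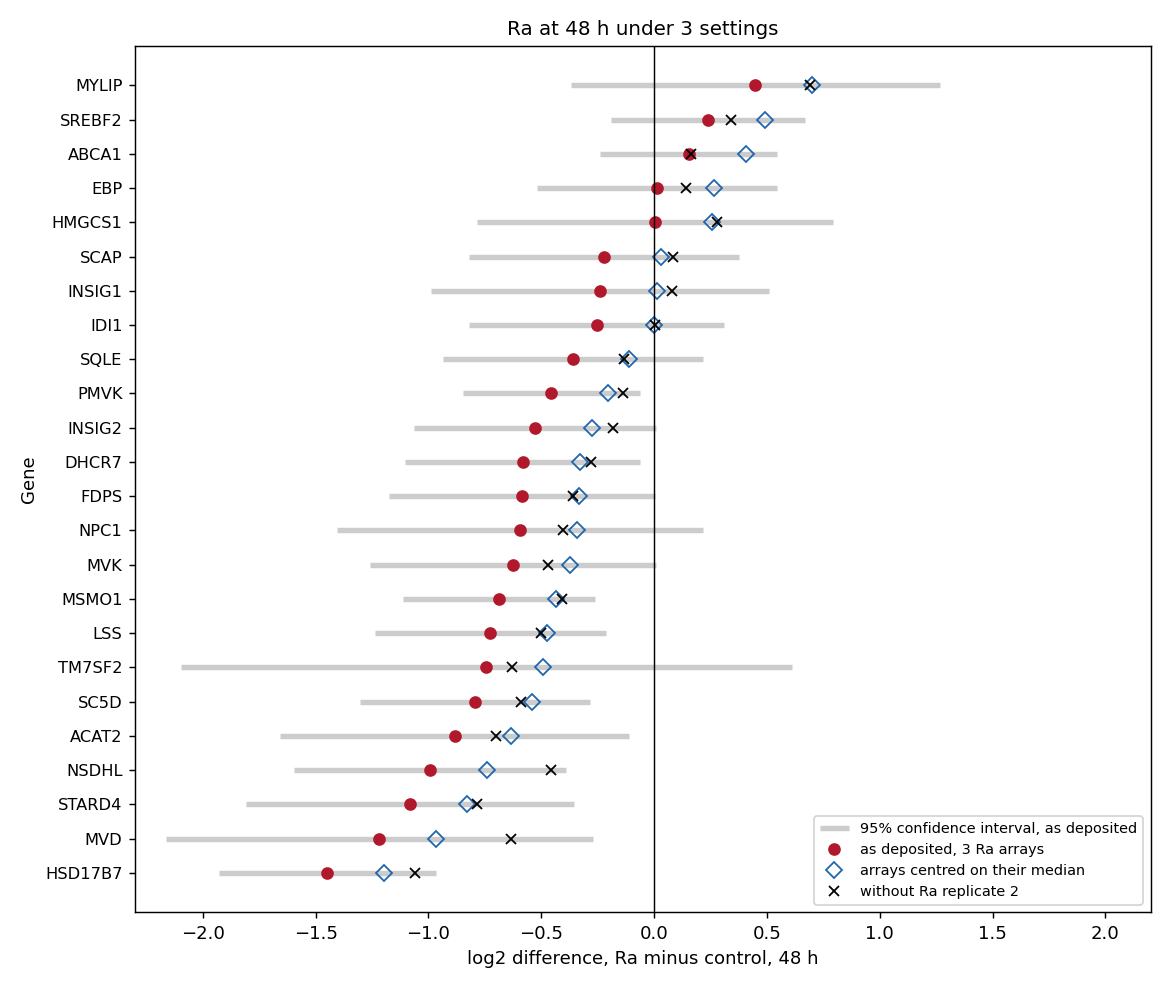
Log2 difference, Ra minus vehicle control at 48 h (x axis), of the 24 members (y axis), as deposited with the 95% confidence interval (red points, grey bars), with every array centred on its median (blue diamonds) and without Ra replicate 2 (crosses). The centred values and those without replicate 2 lie to the right of the deposited ones, and HSD17B7 stays lowest in each.

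The count of 6 moved with several arrays. It was 10 without Ra replicate 1, 1 without Ra replicate 2, and 1 and 3 without control replicates 2 and 3. Fitted on the Fk and Ra arrays alone, 1 member was called. The fibroblast marker COL1A1 was lower in Ra cells at 48 h by -1.04 (SE 0.33, adjusted p = 0.0241), while the summed linear signal of the 5 fibroblast markers was 821 to 1531 in Ra cells and 586 to 1081 in controls. The part of these markers in the members' result was not tested.

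Around the pathway, 4 of 11 genes for other mevalonate products fell under Ra at 48 h and 0 rose. Of all 11356 genes, 18.5% were called there, 1769 lower and 337 higher. NUS1 and DHDDS, which together make dolichol chains, fell by 0.73 (SE 0.23, adjusted p = 0.0257) and 0.63 (SE 0.20, adjusted p = 0.0286) on the log2 scale. GGPS1, which makes geranylgeranyl diphosphate, fell by 0.48 (SE 0.17, adjusted p = 0.0446). SOAT1, which esterifies cholesterol, and OSBP, an oxysterol-binding transfer protein, fell by 0.94 (SE 0.33, adjusted p = 0.0417) and 0.68 (SE 0.21, adjusted p = 0.0236), and NCOA1 fell by 0.84 (SE 0.27, adjusted p = 0.0269). MBTPS1, a protease that cuts SREBP proteins, rose by 0.49 (SE 0.15, adjusted p = 0.0227). These values are as deposited, with the displaced median and with Ra replicate 2 included.

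Under Ra at 12 h 0 of 24 members were called and 0 had an unadjusted p under 0.05 by limma, where 0.0704% of all genes were called. All 7 mevalonate enzymes lay below 0, between -0.39 and -0.10, and all 8 regulators and transport genes lay above 0, between 0.07 and 0.52. NSDHL had 9.73, 9.66 and 9.19 in Ra cells against 10.27, 10.00 and 10.02 in controls, without overlap, at -0.57 (SE 0.30, adjusted p = 0.675). ABCA1, the exporter that loads cholesterol onto lipoproteins, had 10.86, 10.83 and 10.77 in Ra cells against 10.53, 10.48 and 10.54 in controls, also without overlap, at 0.30 (SE 0.19, adjusted p = 0.794). Ra and control arrays were free of overlap in 2 of 24 members (8.33%) and in 32.2% of all genes, so the members' share was the lower.

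Fk gave no called member at either time by limma in the fit without pairing. At 12 h 0 of 24 were called and 2 had an unadjusted p under 0.05, with 0% of all genes called. SC5D had 11.50, 11.43 and 11.19 in Fk cells against 11.04, 10.91 and 10.60 in controls, without overlap, at 0.53 (SE 0.25, adjusted p = 0.792). It was the only 1 of 24 members (4.17%) without overlap at 12 h, beside 15.8% of all genes. At 48 h 0 of 24 were called and 4 had an unadjusted p under 0.05, with 0% of all genes called. All 16 enzymes lay below 0 at 48 h, and 19 of 24 members in all (79.2%), against 46.2% of all genes. Fk and control arrays were free of overlap at 48 h in 2 members (8.33%), beside 10.1% of all genes. MVD had 5.55, 5.30 and 5.66 in Fk cells against 5.67, 6.75 and 6.21 in controls, just without overlap, at -0.71 (SE 0.47, adjusted p = 1). NPC1 had 12.43, 12.54 and 12.41 in Fk cells against 12.37, 12.36 and 12.30 in controls, at 0.12 (SE 0.40, adjusted p = 1). At 12 h Fk replicate 3 lay apart from the other Fk arrays in STARD4, with 10.65, 10.36 and 8.36 in Fk cells and 10.12, 9.89 and 9.51 in controls.

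**Figure D4:**
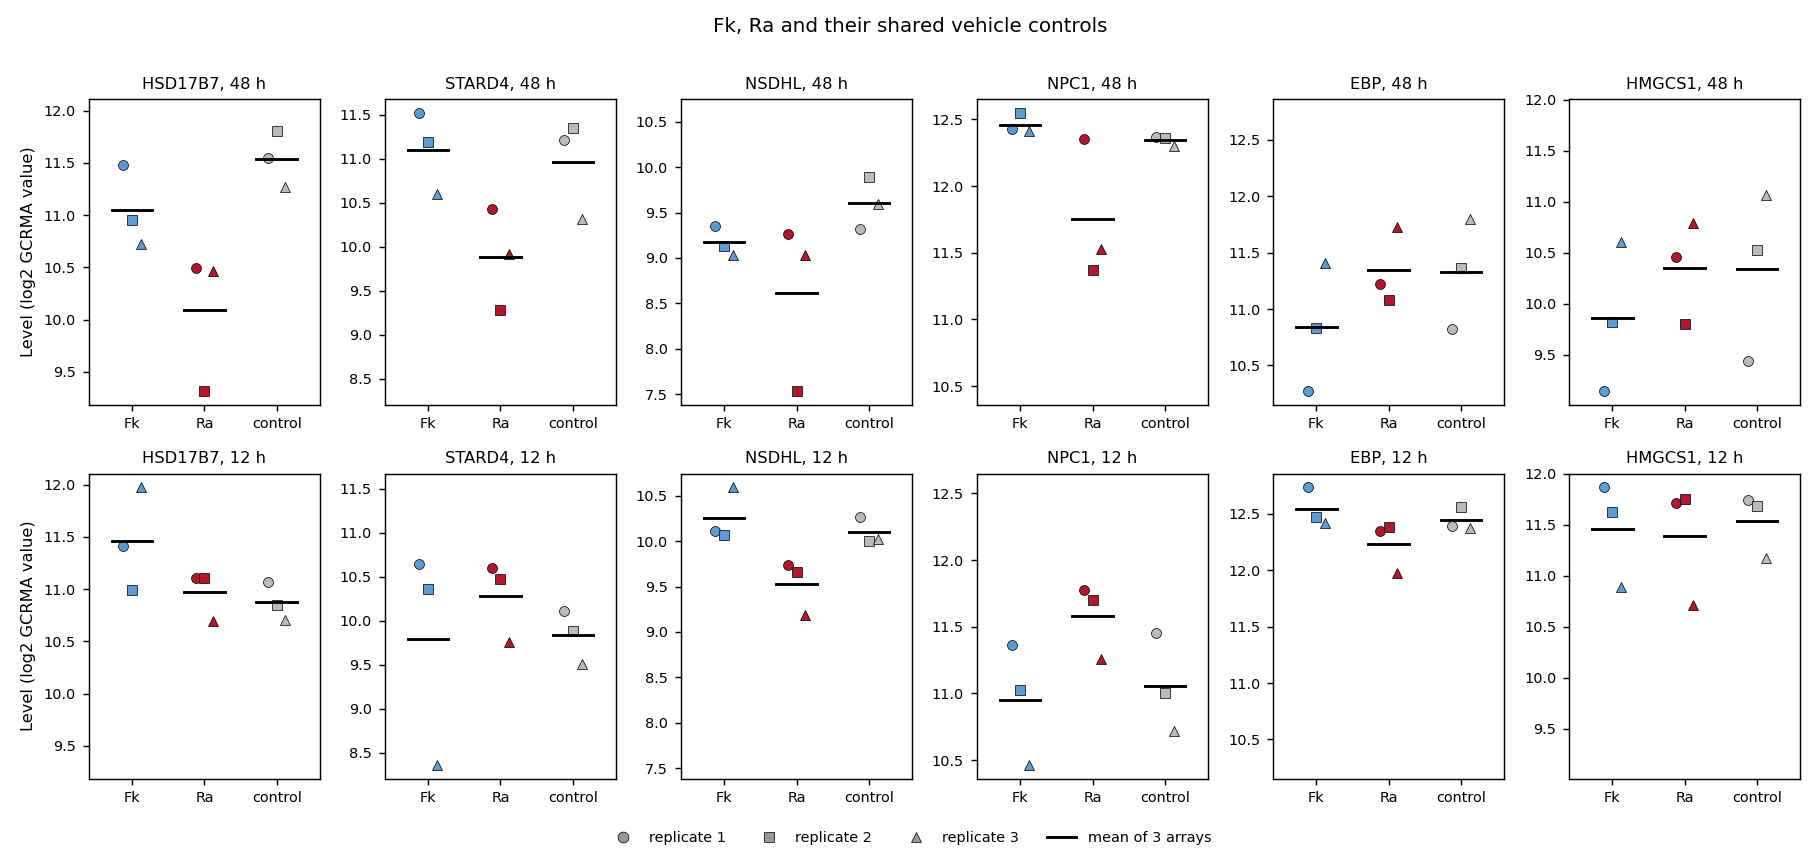
Log2 levels (y axis) of 6 members in the Fk and Ra set at 48 h (top) and 12 h (bottom), for Fk, Ra and their shared controls (x axis). Symbols are single arrays by replicate number and bars are means of 3 arrays. HSD17B7 is lowest under Ra at 48 h, and in the controls NPC1 and STARD4 are higher and EBP is lower at 48 h than at 12 h.

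Set against each other at 48 h, Fk and Ra differed in 2 of 24 members (8.33%), both higher in Fk cells, where 17.3% of all genes were called and the median of all genes was 0.20. STARD4 had 11.52, 11.20 and 10.60 in Fk cells and 10.43, 9.28 and 9.92 in Ra cells, without overlap, a difference of 1.23 (SE 0.36, adjusted p = 0.0169), and 0.93 (adjusted p = 0.0608) after centring. HSD17B7 had 11.47, 10.95 and 10.72 in Fk cells and 10.49, 9.32 and 10.46 in Ra cells, a difference of 0.96 (SE 0.24, adjusted p = 0.00576), and 0.67 (adjusted p = 0.0332) after centring. Without Ra replicate 2 the HSD17B7 difference was 0.57 (adjusted p = 0.131). Centring also brought SREBF2 past the threshold, lower in Fk cells by -0.68 (adjusted p = 0.0243). The count was 0 without Fk replicate 1 or Ra replicate 2, 1 without Fk replicate 2 and 4 without Ra replicate 1.

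The same comparison, with 17.3% of all genes called, 1721 higher and 241 lower, called 4 of 11 genes for other mevalonate products. All were higher in Fk cells, led by DHDDS at 0.75 (SE 0.20, adjusted p = 0.0112), NUS1 at 0.70 (SE 0.23, adjusted p = 0.0312) and GGPS1 at 0.64 (SE 0.17, adjusted p = 0.00974). OSBP was higher by 0.67 (SE 0.21, adjusted p = 0.0265), the lipoprotein receptor LRP1 by 0.58 (SE 0.20, adjusted p = 0.0443) and NCOA1 by 0.76 (SE 0.27, adjusted p = 0.0452). PECAM1 was lower in Fk cells by -0.70 (SE 0.21, adjusted p = 0.0193). At 12 h 0 of 24 members were called between Fk and Ra and 5 had an unadjusted p under 0.05 by limma, where 0.00881% of all genes were called. The widest differences there were 0.73 for NSDHL (95% confidence interval 0.13 to 1.33) and -0.71 for INSIG2 (-1.25 to -0.17).

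CsA gave no called member in the fit without pairing. At 12 h 0 of 24 were called and 0 had an unadjusted p under 0.05 by limma, with 0% of all genes called. Of the 24 members 20 lay above 0 (median 0.14), beside 5356 of all 11356 genes. CsA and control arrays were free of overlap in 2 members (8.33%), beside 6.34% of all genes. STARD4 had 10.03, 10.29 and 10.20 in CsA cells against 9.79, 10.01 and 9.79 in controls, without overlap, at 0.31 (SE 0.36, adjusted p = 1). MVK, mevalonate kinase, had 8.31, 8.16 and 8.36 in CsA cells against 8.13, 8.07 and 8.03 in controls, also without overlap, at 0.20 (SE 0.31, adjusted p = 1).

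At 48 h of CsA 0 of 24 members were called and 5 had an unadjusted p under 0.05, where 1.02% of all genes were called. Of the 16 enzymes, 14 lay below 0, and the median member was at -0.23. Among all members 66.7% lay below 0, beside 49.5% of all genes. CsA and control arrays were free of overlap in 6 members (25%), beside 14.2% of all genes. ACAT2 had 9.96, 9.01 and 10.11 in CsA cells against 11.13, 10.22 and 11.35 in controls. The groups did not overlap and the difference was -1.21 (SE 0.38, adjusted p = 0.133). HMGCS1 had 10.04, 9.80 and 9.35 in CsA cells against 10.97, 10.46 and 10.21 in controls, at -0.82 (SE 0.39, adjusted p = 0.389). ABCA1 had 10.02, 10.09 and 10.23 in CsA cells against 9.64, 9.09 and 9.64 in controls, higher in each CsA array, at 0.66 (SE 0.19, adjusted p = 0.0977).

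Same-numbered arrays deviated together in the CsA set too, and with the number as a block 2 members were called at 48 h, ACAT2 lower (adjusted p = 0.0166) and ABCA1 higher (adjusted p = 0.0317). The share of all genes called with the block is not given here. ACAT2 was lower than its same-numbered control in 3 of 3 replicates and ABCA1 higher in 3 of 3. Both calls were lost when the same blocked design was fitted on the CsA arrays alone, where 0 members were called. Without control replicate 2 at 48 h, and without the block, 1 member was called.

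**Figure D5:**
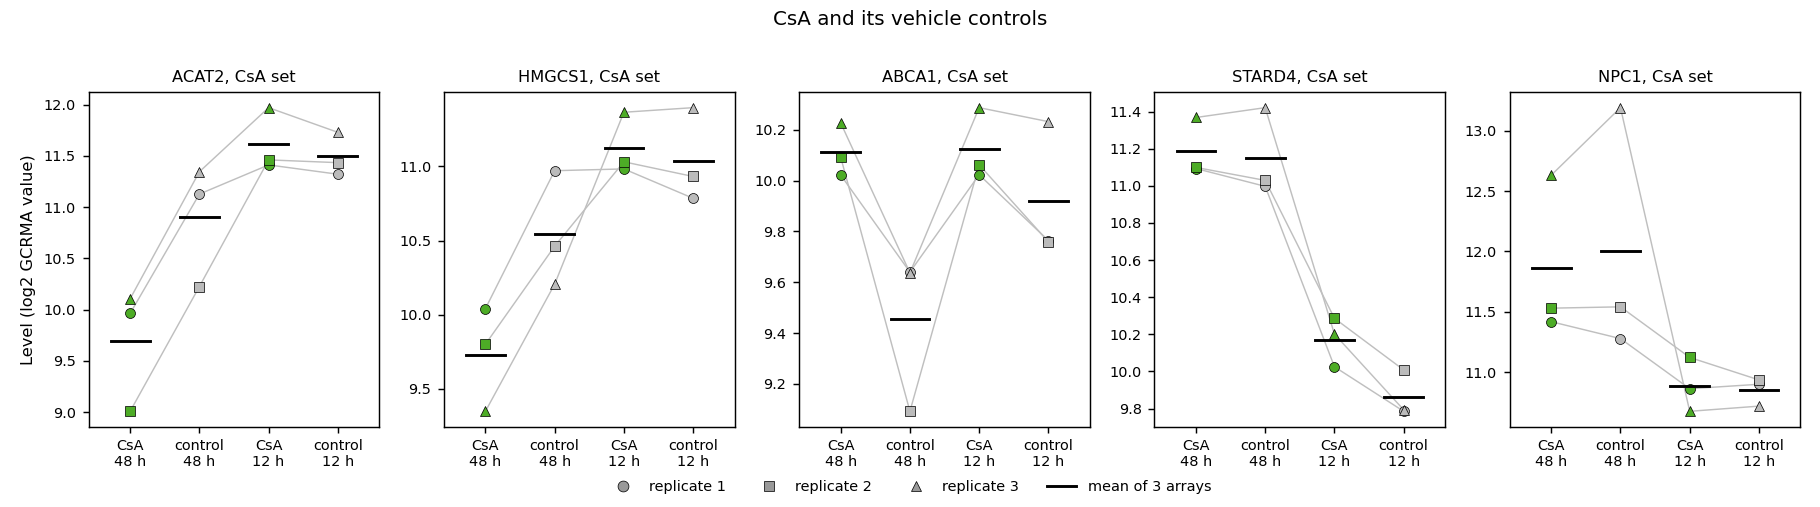
Log2 levels (y axis) of 5 members in the CsA set at 48 h and 12 h (x axis, CsA left of its vehicle control). Symbols are single arrays, grey lines join arrays of the same replicate number and bars are means of 3 arrays. ACAT2 and HMGCS1 are lowest in CsA cells at 48 h, and NPC1 is higher at 48 h than at 12 h with or without CsA, most in replicate 3.

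The controls themselves changed with time in culture. In the CsA set 4 of 24 members (16.7%) were called between control cells at 48 and 12 h, beside 13.7% of all genes. In the Fk and Ra set 5 of 24 (20.8%) were called, beside 19.8% of all genes, so that the members' shares were near those of all genes. STARD4 had 10.997, 11.03 and 11.42 at 48 h against 9.79, 10.01 and 9.79 at 12 h in the CsA-set controls, and 11.21, 11.35 and 10.31 at 48 h against 10.12, 9.89 and 9.51 at 12 h in the Fk and Ra controls. The later arrays were all higher, by 1.29 (SE 0.36, adjusted p = 0.015) and 1.12 (SE 0.36, adjusted p = 0.0241).

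NPC1 had 11.28, 11.54 and 13.19 at 48 h against 10.90, 10.94 and 10.72 at 12 h in the CsA-set controls, and 12.37, 12.36 and 12.30 at 48 h against 11.45, 11.004 and 10.72 at 12 h in the Fk and Ra controls. It was higher at 48 h in both, by 1.15 (SE 0.40, adjusted p = 0.0494) and 1.29 (SE 0.40, adjusted p = 0.0202). In the CsA-set controls replicate 3 at 48 h was the highest, and without it the difference was 0.56 (adjusted p = 0.38). That call was also lost without the filter (adjusted p = 0.0885) and on the arrays of the set alone, with the block or without it (adjusted p = 0.133 without). A dimmer second probe set of NPC1 was not called, at 0.83 (SE 0.42, adjusted p = 0.207) and 0.20 (SE 0.42, adjusted p = 0.815). EBP fell in both sets, with 11.11, 10.85 and 11.39 at 48 h against 11.94, 11.72 and 12.11 at 12 h in the CsA-set controls, a difference of -0.81 (SE 0.26, adjusted p = 0.0345). In the Fk and Ra controls EBP had 10.82, 11.37 and 11.80 at 48 h against 12.39, 12.56 and 12.37 at 12 h, a difference of -1.11 (SE 0.26, adjusted p = 0.00268), which held whichever array was left out.

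INSIG2 rose in the CsA-set controls, with 9.47, 9.66 and 9.30 at 48 h against 8.66, 8.99 and 8.45 at 12 h, a difference of 0.78 (SE 0.27, adjusted p = 0.046). In the Fk and Ra controls HMGCS1 had 9.44, 10.53 and 11.06 at 48 h against 11.74, 11.69 and 11.18 at 12 h, a difference of -1.19 (SE 0.39, adjusted p = 0.0265), and of -0.74 (adjusted p = 0.266) without replicate 1 at 48 h. HSD17B7 had 11.55, 11.80 and 11.27 at 48 h against 11.07, 10.85 and 10.71 at 12 h there, a difference of 0.67 (SE 0.24, adjusted p = 0.0445). The CsA-set count was 1 and 0 without replicates 1 and 3 at 12 h and 2, 1 and 1 without replicates 1, 2 and 3 at 48 h. The Fk and Ra count was 1 and 2 without replicates 2 and 3 at 12 h and 1 and 2 without replicates 1 and 2 at 48 h.

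Genes around the pathway that changed in the controls with time included PDSS1, lower by -1.27 (SE 0.38, adjusted p = 0.0225) in the CsA set and -1.86 (SE 0.38, adjusted p = 0.000819) in the Fk and Ra set. OSBP was higher by 0.73 (SE 0.21, adjusted p = 0.0205) and 0.78 (SE 0.21, adjusted p = 0.00886), and FNTA by 0.47 (SE 0.13, adjusted p = 0.0146) and 0.46 (SE 0.13, adjusted p = 0.0118). In the CsA set LPCAT3, a liver X receptor target that remodels phospholipids, was lower by -0.77 (SE 0.20, adjusted p = 0.0107). In the Fk and Ra set GRAMD1A, a cholesterol transfer protein, was higher by 1.85 (SE 0.33, adjusted p = 0.000193), GGPS1 by 0.56 (SE 0.17, adjusted p = 0.0176), and NCEH1, a cholesteryl ester hydrolase, was lower by -1.42 (SE 0.45, adjusted p = 0.0215). Between Nnm controls at 48 and 24 h, 0 of 24 members were called and 0 had an unadjusted p under 0.05 by limma, with 0% of all genes called.

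Whether a treatment's effect differed between its 2 times was tested directly. For Ra 1 of 24 members (4.17%) was called, beside 3.62% of all genes, and this was HSD17B7, whose effect was -1.45 at 48 h and 0.10 at 12 h, a difference of -1.54 (SE 0.34, adjusted p = 0.0112). Without Ra replicate 2 at 48 h the HSD17B7 difference was -1.16 (adjusted p = 0.0539) and 0 members were called, and without Ra replicate 1 or control replicate 3 at 48 h 3 and 2 members were called. STARD4 followed at -1.52 (SE 0.51, adjusted p = 0.0773). In the other tests 0 of 24 members were called by limma, with 2 at an unadjusted p under 0.05 for CsA (0% of all genes called), 3 for Fk (0%), 0 for the low dose of Nnm (0%) and 0 for the high dose (0.00881%).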

How the data were processed

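RNA of HK-2 cells was measured on 48 arrays, 3 for each of 16 groups. The deposited values are log2 levels per probe set, made by the authors with GCRMA, per the submitters' processing notes, which give no version. No array repeated another's values. Arrays carry no read depth, so their number limits the precision. Of 54675 probe sets, 62 are controls, 41091 carry 1 gene symbol in the platform annotation, 1801 carry several and 11721 are not listed. Here a gene took its probe set with the highest mean, and genes above a log2 level of 4 on at least 3 arrays were kept. HSD17B7 and IDI1 rest on probe sets whose probes can match related transcripts.

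All 48 arrays were fitted with limma 3.58.1 in R 4.3.3 (lmFit and eBayes, 1 mean per group), with two-sided tests, Benjamini-Hochberg adjustment over 11356 genes within each of 22 comparisons and a threshold of 0.05. The fit was tested on simulated data. Same-numbered arrays deviated together in 18 of 18 pairs of the CsA set (r of 0.243 to 0.926) and 45 of 45 of the Nnm set (0.138 to 0.786), which were taken as paired by replicate number, and in 19 of 45 of the Fk and Ra set, which was not. The main fit still held no block, because the labels do not say that a number marks a shared batch. Its SE and adjusted p, given in the text unless the block is named, thus do not use the pairing. Alternatives were array centring, quantile normalization, no filter, the mean of a gene's probe sets, the arrays of a set alone, the replicate block and leaving out each array.

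The rule for named genes gave every array of up to 6 called members per direction in a treatment comparison, or, with none called, of up to 3 members whose groups did not overlap, by size of difference. For dose, compound and time it took up to 3 called members per direction, and as many genes of each related list. Members named beyond it (such as PMVK, TM7SF2, the regulators and ABCA1 under Nnm) were picked for their role after their values were seen. The members and the lists were chosen with earlier results of these data known.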

Additional observations from a re-analysis of the deposited data

Results flagged for a closer look

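The effect of Ra on HSD17B7 differed between 48 h and 12 h by -1.543 log2 units in the test of the difference itself (adjusted p = 0.0112, limma). With each array centred on its median the difference was -1.27 (adjusted p = 0.0204). The call was lost without replicate 2 of Ra at 48 h, the array that stood apart, and also with the arrays of the set alone.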

How the results depend on the processing

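Direction held for all 47 named results under every setting run, including each array left out, but calls did not: of the 37 named calls, 4 passed whichever array was left out (ACAT2 and LSS at the high dose of Nnm at 24 and 48 h in turn, HSD17B7 under Ra at 48 h and EBP in the Fk and Ra controls). The causes of the changes below were not tested. Counts of called members under these other settings are given throughout without the share of all genes called under the same setting. They thus do not show whether members were called more often than other genes. With arrays centred, the count was 2 for Ra at 48 h and 4 for low-dose Nnm at 48 h, and with quantile normalization 2 and 5. Without the filter it was 0 for low-dose Nnm at 48 h, 6 for high-dose Nnm at 24 h and 1 for the CsA controls. With the arrays of a set alone it was 1 for Ra at 48 h, 4 for low-dose Nnm at 24 h, 0 for Fk against Ra at 48 h, 2 for the Fk and Ra controls and 0 for the Ra time difference. With the replicate block it was 2 for CsA at 48 h, 6 and 6 for low-dose Nnm at 24 and 48 h, 11 for high-dose Nnm at 48 h and 2 for the Ra time difference. The block together with the arrays of a set alone, chosen after seeing the data, gave 0 for CsA at 48 h, 1 for Ra at 48 h, 9 and 12 for low-dose Nnm and 19 and 18 for high-dose Nnm at 24 and 48 h, 3 for the Fk and Ra controls and 0 for the Ra time difference. The Fk and Ra set was not taken as paired, since same-numbered arrays deviated together in only 19 of 45 pairs. Those pairs were counted within and between its times, so pairing within a time was not tested. EBP at 48 h had 10.82, 11.37 and 11.80 in controls, 10.28, 10.83 and 11.41 in Fk cells and 11.22, 11.08 and 11.72 in Ra cells. With the block 9 members were called for Ra at 48 h.

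Leaving out 1 array gave counts of 0 to 1 for CsA at 48 h, 1 to 10 for Ra at 48 h, 0 to 4 and 0 to 1 for low-dose Nnm at 24 and 48 h, 1 to 14 and 1 to 11 for high-dose Nnm at 24 and 48 h, 0 to 4 for Fk against Ra at 48 h, 0 to 3 for the CsA controls, 1 to 6 for the Fk and Ra controls and 0 to 3 for the Ra time difference. Dim probe sets, such as ABCG1's, limit what these arrays show of their genes.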
